A study of Mus musculus with 8 samples.

Results

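The translation initiation factor genes were examined in ChIP-seq data of H3K9ac, the acetylation of histone H3 at lysine 9 that marks active promoters, from mouse ileal epithelium. Members were the regions of the deposited table whose gene name starts with Eif and a digit, except the Eif2ak kinase genes, which gave 42 regions of 42 genes out of 11251 regions carrying 9758 gene names. The 4 regions named for Eif2ak genes were set apart. Wild-type C57Bl/6 mice, whose terminal ileum gave the intestinal epithelial cells, received 150 mM butyrate for 7 days or vehicle. Each group had 3 H3K9ac libraries, named S1 to S3 for vehicle and S4 to S6 for butyrate, and no group carried a transgene or deleted allele per the labels. The sources used here give neither route of dosing, age, sex nor the number of mice per library, so p-values measure the spread between libraries, which may be technical. Butyrate, a fatty acid that gut bacteria make from fibre, inhibits histone deacetylases, and the design asks how it alters histone acetylation in the epithelium.

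Translation initiation brings a ribosome to the start codon of an mRNA. The factor eIF2, loaded with GTP by its exchange factor eIF2B, delivers the initiator tRNA to the small ribosomal subunit, which eIF1, eIF1A and the many-subunit complex eIF3 hold open for scanning. The cap-binding protein eIF4E, the scaffold eIF4G and the helicase eIF4A recruit that subunit to the mRNA cap, and the eIF4E-binding proteins block this step unless the growth kinase mTORC1 phosphorylates them. Once the start codon is found, eIF5 triggers GTP hydrolysis by eIF2 and eIF5B joins the large subunit. The intestinal epithelium renews itself constantly and makes much protein.

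The promoters of 5 members are shown, chosen by smallest p-value or highest level among members whose region covers the start. Eif4a3 and Eif3b had the smallest limma p-values among those lower with butyrate. Eif3m was chosen among those higher, and Eif3d and Eif2a had the highest H3K9ac levels. Eif4ebp1 also qualified and has no sequence shown. Each is the 250 bases before the RefSeq start in GRCm38.p6 (the mm10 assembly), printed in the direction of transcription. They lie at chr11:119300044-119300293 on the minus strand for Eif4a3, chr5:140419055-140419304 on the plus strand for Eif3b, chr2:105017028-105017277 on the minus strand for Eif3m, chr15:77970825-77971074 on the minus strand for Eif3d and chr3:58525571-58525820 on the plus strand for Eif2a. Capitals mark exact matches, on either strand, to the motifs searched.
Eif4a3: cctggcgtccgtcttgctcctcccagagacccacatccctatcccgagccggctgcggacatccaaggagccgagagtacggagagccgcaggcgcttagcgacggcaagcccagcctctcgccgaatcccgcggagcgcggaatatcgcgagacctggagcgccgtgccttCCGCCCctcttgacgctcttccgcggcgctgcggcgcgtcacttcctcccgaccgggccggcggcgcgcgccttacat
Eif3b: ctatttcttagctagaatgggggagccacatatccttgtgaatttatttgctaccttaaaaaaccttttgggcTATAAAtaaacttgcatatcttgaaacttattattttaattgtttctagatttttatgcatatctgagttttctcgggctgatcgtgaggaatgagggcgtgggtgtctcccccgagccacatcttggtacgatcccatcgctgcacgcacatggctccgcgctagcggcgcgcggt
Eif3m: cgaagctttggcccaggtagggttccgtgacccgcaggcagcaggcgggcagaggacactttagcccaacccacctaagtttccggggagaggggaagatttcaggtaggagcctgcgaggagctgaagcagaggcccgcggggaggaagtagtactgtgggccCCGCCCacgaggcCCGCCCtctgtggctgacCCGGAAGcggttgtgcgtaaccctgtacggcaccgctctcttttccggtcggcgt
Eif3d: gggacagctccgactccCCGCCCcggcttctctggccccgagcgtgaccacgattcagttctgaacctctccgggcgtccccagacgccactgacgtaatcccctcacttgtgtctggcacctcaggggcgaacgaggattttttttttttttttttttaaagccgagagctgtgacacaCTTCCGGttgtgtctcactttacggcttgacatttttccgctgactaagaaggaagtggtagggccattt
Eif2a: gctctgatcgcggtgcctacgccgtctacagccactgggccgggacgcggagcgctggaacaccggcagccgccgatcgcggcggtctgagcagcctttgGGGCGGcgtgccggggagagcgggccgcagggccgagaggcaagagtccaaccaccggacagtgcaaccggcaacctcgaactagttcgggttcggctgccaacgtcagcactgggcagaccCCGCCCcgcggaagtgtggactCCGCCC

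In these windows the capitals are GC boxes (GGGCGG, or CCGCCC on the other strand) in Eif4a3, Eif3m, Eif3d and Eif2a, ETS letters (CCGGAAG, or CTTCCGG on the other strand) in Eif3m and Eif3d, and TATAAA in Eif3b. The TATAAA of Eif3b lies at positions -177 to -172, counted back from the start. Eif2a held 3 GC boxes and Eif3m 2. GC content was 70% with 36 CpG dinucleotides in Eif4a3, 70.8% with 30 in Eif2a, 64.8% with 19 in Eif3m, 54% with 16 in Eif3d and 44.8% with 13 in Eif3b. Eif4a3 and Eif3b, whose regions both had all butyrate libraries below all vehicle libraries, thus had the most and the fewest CpG dinucleotides of this set.

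RefSeq promoters of this length were at hand for 31 of the 42 member genes and for 27025 genes in all, of which 6346 had a region centred within 1 kb of a protein-coding start. The E-box letters CACGTG were in 7 of the 31 member promoters (22.6%), against 8.68% of the promoters near regions and 6.05% of all. Those 7 were Eif1b, Eif3f, Eif3k, Eif4a1, Eif4e, Eif4g1 and Eif4h. The member promoters were not held to the 1 kb rule of the promoters near regions. The regions of Eif4a1 and Eif4h, centred at 1440 and 1288 bp from the start, fall outside it. The ETS letters CCGGAAG were in 8 (25.8%), against 15.6% near regions and 7.05% of all. GC boxes were in 21 (67.7%), against 60.8% and 32.9%, and the NRF1 letters GCATGCGC in 3 (9.68%), against 5.23% and 2.32%. The letters CCAAT were in 7 (22.6%), against 35.6% and 34.5%, and TATAAA in 3 (9.68%), against 6.07% and 13%. Neither the CRE letters TGACGTCA, at 3.12% near regions and 1.62% of all, nor the YY1 letters AAGATGGCG, at 1.10% and 0.607%, matched a member. E-box, ETS, GC-box, NRF1 and TATAAA letters thus had a higher share, and CCAAT, CRE and YY1 letters a lower share, in member promoters than in the promoters near regions. These shares describe 31 windows and were not tested, and those of NRF1 and TATAAA rest on 3 promoters each. The CRE and YY1 letters are so rare near regions that 0 of 31 cannot show a lower share.

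H3K9ac at these genes formed broad regions at and just after the start site. Values are RPKM, reads per kilobase of region relative to the scaled library size, so that levels can be compared between genes per length. The median of the mean RPKM over 6 libraries was 4.21 for the members, with quartiles of 3.21 and 4.77, against 3.09 for all regions, with quartiles of 1.97 and 4.10. Of the 42 members, 32 lay above the median of all regions, 24 above the upper quartile and 3 (Eif2b3, Eif4e3 and Eif4ebp3) under the lower quartile. Regions centred within 1 kb of a protein-coding start, numbering 8151, had a median of 3.37 RPKM. Members were also longer, with a median of 2330 bp against 1417 bp for all and 1476 bp near starts.

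Most members sat over their own start. By GENCODE M21, 37 covered it. By the distance in the deposited table, 36 were centred within 1 kb of the start assigned there, among them Eif3j2, whose start the table and GENCODE place differently, and 39 were centred downstream. The deposited annotation placed the centre of 26 in an intron, of 9 in a promoter, of 3 in an exon, of 2 in a 5' UTR, of 1 in non-coding sequence and of 1 between genes. A CpG island was the detailed annotation of 14 members (33.3%), against 12.8% of all regions and 15.8% near starts. Their CpG content, observed over expected, had a median of 0.691, against 0.588 for all and 0.642 near starts, while GC content was alike at 52.8%, 52.2% and 53.8%. These shares are descriptions of a list defined by name.

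**Figure D1:**
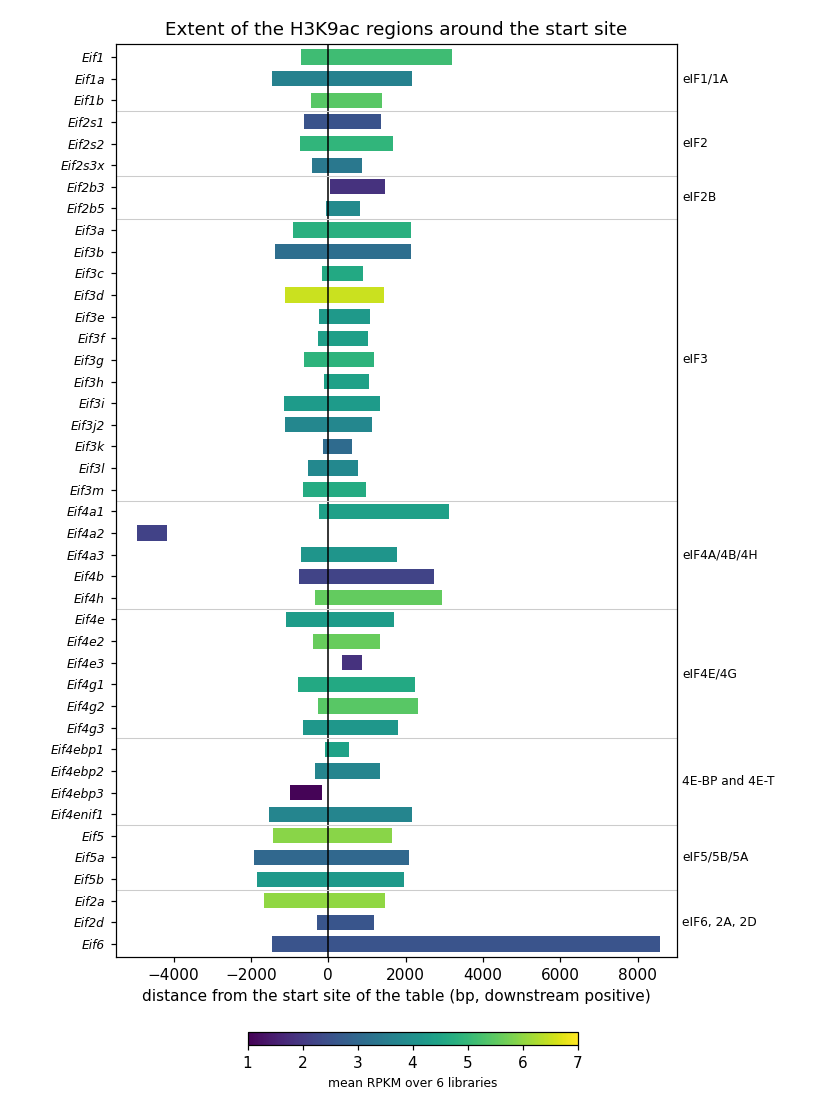
Extent of each member region in bp around the start site that the deposited table assigns to its gene (x axis, downstream positive), coloured by its mean RPKM over 6 libraries and grouped by role. Most bars span the start and reach further downstream, the Eif6 bar reaches 8581 bp downstream, and the Eif4a2 bar lies upstream of it.

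Several members carry a name that needs care. The region named Eif3j2 (chr2:122027452-122029723) covers the start of Eif3j1 and no other protein-coding start. The annotation places Eif3j2, a near-identical copy, on another chromosome. By position the region is thus that of the Eif3j1 start, and the deposited name Eif3j2 is kept here. The region named Eif4a2 (chr16:23102513-23103312) is intergenic, with its centre at -4555 bp from the start, and the Eif4a2 start itself lies in a 5642 bp region named for Snord2, a small nucleolar RNA gene (chr16:23106686-23112328). The regions of Eif2b3, Eif4e3 and Eif4ebp3 did not cover their start either: they began at 48 bp, spanned 366 to 866 bp and spanned -980 to -152 bp from it. Another protein-coding start was covered by 7 members: Eif1a shared its region with Tmed7, Eif2s1 with Atp6v1d, Eif3i with Tmem234, Eif5b with Txndc9, Eif2a with Serp1 and Eif6 with BC029722, and Eif3j2 held Eif3j1. At the shared regions the signal of neighbouring genes cannot be told apart.

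GENCODE M21 lists 51 protein-coding Eif genes outside Eif2ak, and 9 had no region of their name. Besides Eif3j1, these were Eif1ad, Eif1ax, Eif2b1, Eif2b2, Eif2b4, Eif2s3y, Eif4e1b and Eif5a2, whose starts lay in no region of the table. The sources used here do not give how regions were called, so no level can be stated for those 8 genes.

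H3K9ac at the initiation factor genes showed small differences between butyrate and vehicle, none past the test. No member passed limma's adjusted p of 0.05, and neither did any of the 10529 regions tested (0% called). All 42 members had the mean of at least 1 RPKM needed for the test, and their smallest adjusted p was 0.596 by limma, at Eif4a3, against 0.486 over all regions. The median log2 fold change of the members, butyrate over vehicle on the scale of log2(RPKM + 1), was -0.03, against 0.00 for all regions tested, and 26 of 42 were below 0 (61.9%), where 50% of all regions were. Absolute log2 fold changes were under 0.1 in 26 members and at most 0.27, and the 95% interval held 0 in 40. This scale understates fold changes, most of all those of weak regions. Eif3k, with the largest absolute value here at -0.27, had -0.35 by limma's voom, a fit on the recovered reads. The library scaling of the deposited values would remove a gain shared by most regions. A lower level in all cells and a lack of the mark in some cells cannot be told apart in such bulk libraries.

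At an unadjusted limma p under 0.05 stood 2 members, 4.76% of 42, where 7.27% of all regions did. These were Eif4ebp1, higher (1 member, against 3.35% of all regions higher), and Eif4a3, lower (1 member, against 3.91% of all regions lower). All 3 butyrate libraries lay below all 3 vehicle libraries at 3 members, Eif3b, Eif4a3 and Eif4e, or 7.14%, against 6.85% of all regions. No member had all butyrate libraries above, against 6.11% of all regions. With limma's voom on the recovered reads, 0 of the 40 members with at least 25 mean reads passed an adjusted p of 0.05, against 0.0995% of 9048 regions, and 3 (Eif4a3, Eif3b and Eif4enif1) had an unadjusted p under 0.05, against 8.3% of those regions. In the authors' deposited table, no member reached an FDR under 0.1, against 0.249% of 11251 regions.

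**Figure D2:**
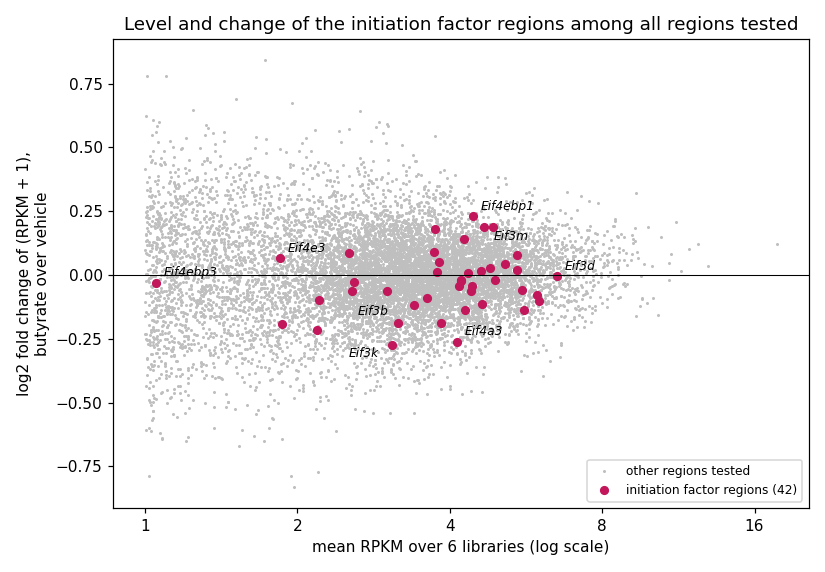
Mean RPKM over 6 libraries (x axis, log scale) against limma's log2 fold change of (RPKM + 1), butyrate over vehicle (y axis), for the 42 member regions in colour and the other regions tested in grey. Of the members, 32 lie above the median level of all regions and Eif4ebp3 lies at the left edge, and all are between -0.27 and 0.23 in fold change, inside the spread of the grey points.

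As a group the members held a similar share of the reads in every library. Their share of all reads in regions was 0.584, 0.592 and 0.582% in vehicle S1 to S3 and 0.568, 0.577 and 0.572% in butyrate S4 to S6. Each butyrate library was below each vehicle library, by a small margin. How often other sets of regions separate in this way was not tested, and regions with many reads weigh most in this share. Their median RPKM was 4.24, 4.05 and 4.21 in vehicle and 4.12, 4.27 and 3.98 in butyrate, so that the groups overlapped on that measure.

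**Figure D3:**
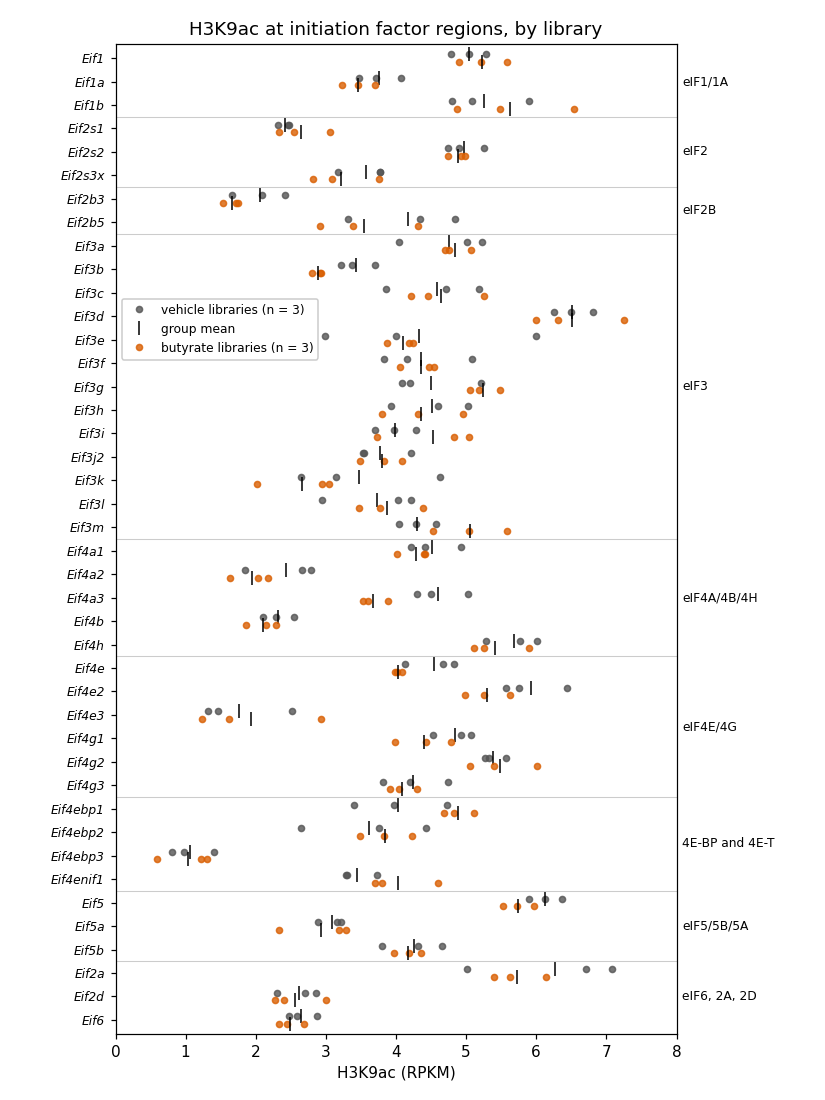
H3K9ac of each member region in RPKM (x axis), with 1 point per library (grey, vehicle S1 to S3, n = 3; orange, butyrate S4 to S6, n = 3) and a bar at each group mean, grouped by role. The points of both groups overlap in all rows except Eif3b, Eif4a3 and Eif4e, where the butyrate points lie to the left.

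Among the factors that govern scanning, eIF1 and eIF1A, Eif1 and Eif1b were slightly higher and Eif1a slightly lower with butyrate, none past the test. Eif1, which guards start codon choice (chr11:100319234-100323135), had 4.79, 5.29 and 5.03 RPKM in vehicle S1 to S3 and 4.90, 5.21 and 5.58 in butyrate S4 to S6. Its close relative Eif1b (chr9:120492153-120493988) had 5.09, 5.89 and 4.80 RPKM in vehicle and 6.53, 5.48 and 4.87 in butyrate. Groups overlapped at both, and the high mean of Eif1b with butyrate came from S4. The log2 fold changes were 0.04 ± 0.09 (SE, limma adjusted p = 0.922) for Eif1 and 0.08 ± 0.10 (limma adjusted p = 0.881) for Eif1b. Without S4 the value for Eif1b was -0.02. Eif1a, a gene for eIF1A, the partner of eIF1 on the small subunit, had 3.71, 4.07 and 3.48 RPKM in vehicle and 3.23, 3.70 and 3.45 in butyrate. It also overlapped between the groups, at -0.09 ± 0.10 (limma adjusted p = 0.857).

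The genes of eIF2, the carrier of the initiator tRNA, and of its exchange factor eIF2B gave mostly negative estimates: 1 of 3 eIF2 members was higher and 2 were lower, and both eIF2B members were lower. Eif2s2, the beta subunit (chr2:154891238-154893627), had 5.26, 4.90 and 4.74 RPKM in vehicle and 4.73, 4.93 and 4.98 in butyrate. Its 6 values lay close together, and the log2 fold change was -0.02 ± 0.08 (limma adjusted p = 0.973), with a 95% interval from -0.20 to 0.16. Eif2s3x, the X-linked gene of the GTP-binding gamma subunit (chrX:94211774-94213083), had 3.17, 3.77 and 3.77 RPKM in vehicle and 2.82, 3.75 and 3.09 in butyrate. It was lowest in butyrate S4, with overlapping groups and a log2 fold change of -0.12 ± 0.11 (limma adjusted p = 0.833). That value was -0.05 without S4 and -0.21 without S5. Eif2s1, the alpha subunit that stress kinases phosphorylate, had group means of 2.42 ± 0.0902 (SD, n = 3) RPKM in vehicle and 2.64 ± 0.380 in butyrate.

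Of the eIF2B subunits, only Eif2b3 and Eif2b5 had a region. Eif2b5, the catalytic epsilon subunit (chr16:20498754-20499634), had 4.84, 3.31 and 4.34 RPKM in vehicle and 2.92, 4.31 and 3.38 in butyrate. Both groups spread widely and overlapped, in a region of 72.2 mean reads. Its log2 fold change was -0.19 ± 0.14 (limma adjusted p = 0.768), and that of Eif2b3 was -0.19 ± 0.15 (limma adjusted p = 0.784) in a region of 55.7 mean reads. The value for Eif2b5 ran from -0.31 without S2 to -0.09 without S4.

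The 13 members of eIF3, the scaffold that links the small subunit to the mRNA, split into 8 higher and 5 lower, with a median log2 fold change of 0.01. Eif3d (chr15:77969373-77971946), a subunit that can itself bind some mRNA caps, had the highest level of all members, with 6.49, 6.25 and 6.81 RPKM in vehicle and 6.31, 5.99 and 7.25 in butyrate. Its butyrate libraries lay on both sides of the vehicle libraries, and both group means were 6.52 RPKM, with SDs of 0.278 and 0.656. The 95% interval of its log2 fold change ran from -0.18 to 0.17.

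Eif3m and Eif3g leaned upwards. Eif3m (chr2:105016043-105017681), a small subunit of the complex, had 4.28, 4.04 and 4.58 RPKM in vehicle and 5.58, 5.05 and 4.53 in butyrate. Butyrate S4 and S5 were above every vehicle library and S6 was not. Eif3g, an RNA-binding subunit (chr9:20897407-20899215), had 5.21, 4.09 and 4.20 RPKM in vehicle and 5.48, 5.19 and 5.06 in butyrate. Here vehicle S1 stood with the butyrate libraries. Both log2 fold changes were 0.19 ± 0.10, with a limma adjusted p of 0.703 each, and both stayed positive whichever library was left out. Eif3i (chr4:129599308-129601787), a core subunit whose region also covers the start of Tmem234, had 4.28, 3.98 and 3.71 RPKM in vehicle and 3.73, 5.05 and 4.82 in butyrate. S5 and S6 were higher and S4 was not, for a log2 fold change of 0.14 ± 0.11 (limma adjusted p = 0.786). It was 0.07 without S5 and 0.25 without S4.

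Eif3b and Eif3k leaned downwards. Eif3b (chr5:140417925-140421449), a core scaffold subunit, had 3.69, 3.21 and 3.38 RPKM in vehicle and 2.92, 2.93 and 2.80 in butyrate. Every butyrate library was below every vehicle library, and the butyrate values lay close together. Its log2 fold change was -0.19 ± 0.10 by limma (adjusted p = 0.709) and -0.26 by voom (adjusted p = 0.497). The authors' deposited table gives Eif3b a log2 fold change of -0.26 with p = 0.0133 and an FDR of 0.358. Eif3k (chr7:28981273-28982024), a peripheral subunit, had 3.15, 4.63 and 2.64 RPKM in vehicle and 2.94, 3.05 and 2.01 in butyrate. Vehicle S2 alone was high and the groups overlapped, so that the lowest estimate of any member, -0.27 ± 0.16 (limma adjusted p = 0.731), rested on a region of 48 mean reads. It was -0.10 without S2 and -0.41 without S3.

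The other subunits had smaller estimates. Eif3a, the largest subunit, Eif3c, Eif3e, Eif3f, Eif3h, Eif3j2 and Eif3l lay between -0.04 and 0.05, with mean levels of 3.78 to 4.80 RPKM. Eif3e had the widest spread of these, with 4, 5.99 and 2.99 RPKM in vehicle and 4.24, 3.87 and 4.18 in butyrate. Its vehicle libraries bracketed all butyrate libraries, so its group means of 4.33 ± 1.53 (SD, n = 3) and 4.10 ± 0.200 RPKM did not differ beyond their spread.

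All 5 members of the eIF4A, eIF4B and eIF4H group had estimates below 0, with a median of -0.10. The lowest limma p of any member was at Eif4a3 (chr11:119298279-119300745), an eIF4A relative that serves in the exon junction complex laid down by splicing. Its region had 4.49, 4.29 and 5.02 RPKM in vehicle and 3.53, 3.60 and 3.89 in butyrate. Every butyrate library was below every vehicle library, with means of 3.67 ± 0.192 against 4.60 ± 0.376 (SD, n = 3). The log2 fold change was -0.26 ± 0.10 by limma (adjusted p = 0.596), with a 95% interval from -0.47 to -0.05, and -0.32 by voom (adjusted p = 0.348). In the authors' deposited table Eif4a3 has a log2 fold change of -0.33 with p = 0.00274 and an FDR of 0.209, above the authors' cutoff of 0.1. Leaving out each library in turn gave values from -0.30 to -0.21. As the groups do not overlap, these could not turn positive.

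Eif4a1, a helicase of the cap complex itself, and the helper genes Eif4h and Eif4b gave weaker estimates than Eif4a3. Eif4h, a helper of eIF4A with one of the highest read counts (chr5:134636481-134639761), had 5.77, 6.01 and 5.28 RPKM in vehicle and 5.25, 5.11 and 5.89 in butyrate. The groups overlapped, at -0.06 ± 0.09 (limma adjusted p = 0.890). Eif4a1, the main helicase, was at 4.52 ± 0.363 (SD, n = 3) RPKM in vehicle and 4.28 ± 0.226 in butyrate. Eif4b, another helper of the helicase, was at 2.31 ± 0.223 and 2.10 ± 0.216.

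At Eif4a2, the second helicase gene, the upstream region and the region over the start gave estimates of opposite sign. The upstream region had 1.84, 2.66 and 2.78 RPKM in vehicle and 1.64, 2.03 and 2.17 in butyrate, with overlapping groups and 36.5 mean reads. Its log2 fold change was -0.21 ± 0.15 (limma adjusted p = 0.760), and ran from -0.34 without S1 to -0.14 without S3 or S4. The region over the Eif4a2 start, named for Snord2, had 3.45, 3.30 and 3.16 RPKM in vehicle and 3.90, 3.22 and 3.33 in butyrate, with 406.5 mean reads. There the groups overlapped too, and the log2 fold change was 0.06 ± 0.10 (limma adjusted p = 0.921). The difference between both regions was not tested, and the start region of Eif4a2 was looked up after the values of the members were known.

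Of the 6 members in the eIF4E and eIF4G group, 2 were higher and 4 lower. Eif4e, the cap-binding protein (chr3:138526176-138528960), had 4.68, 4.13 and 4.83 RPKM in vehicle and 4.01, 4.09 and 3.99 in butyrate. All butyrate libraries were below all vehicle libraries, with S5 just under vehicle S2. Its log2 fold change of -0.14 ± 0.09 had a limma adjusted p of 0.756. Eif4e2, a cap-binding relative that represses translation (chr1:87213550-87215263), had 5.56, 6.44 and 5.76 RPKM in vehicle and 5.26, 4.99 and 5.63 in butyrate. Butyrate S6 lay above vehicle S1, and the log2 fold change was also -0.14, with an SE of 0.08 and a limma adjusted p of 0.737, and -0.08 without S2.

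Eif4g2, an eIF4G relative that lacks the eIF4E-binding part (chr7:111080704-111083291), had 5.57, 5.26 and 5.33 RPKM in vehicle and 5.05, 5.40 and 6.01 in butyrate. Its butyrate values surrounded the vehicle values, for a log2 fold change of 0.02 ± 0.08 (limma adjusted p = 0.973). The scaffold genes Eif4g1 and Eif4g3 had log2 fold changes of -0.12 ± 0.09 and -0.04 ± 0.10. Eif4e3, a further cap-binding relative, had a weak region of 19.7 mean reads that does not cover its start, with 1.32, 1.46 and 2.52 RPKM in vehicle and 1.62, 1.23 and 2.93 in butyrate. S3 and S6 were high there, 1 in each group, and the SE of 0.22 was the largest of any member.

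Among the 4 genes that restrain eIF4E, Eif4ebp1, Eif4ebp2 and Eif4enif1 were higher and Eif4ebp3 lower, with a median of 0.13. This was the highest median of any role, while that of the 2 eIF2B members, -0.19, lay further from 0. With 1 library left out, Eif4ebp2 ran from -0.07 to 0.22. Eif4ebp1, a repressor of cap-dependent translation that mTORC1 switches off (chr8:27260242-27260867), had 3.97, 3.41 and 4.72 RPKM in vehicle and 5.12, 4.82 and 4.69 in butyrate. Vehicle S3 lay above butyrate S6, so the groups overlapped, in a region of 625 bp and 59 mean reads. The log2 fold change was 0.23 ± 0.11 by limma (adjusted p = 0.669) and 0.28 by voom (adjusted p = 0.758). It was 0.14 without S2 and 0.33 without S3. In the authors' deposited table Eif4ebp1 has p = 0.173 and an FDR of 0.691.

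Eif4enif1, the transporter that carries eIF4E into the nucleus and into bodies of silent mRNA (chr11:3201477-3205192), had 3.31, 3.73 and 3.28 RPKM in vehicle and 3.80, 4.60 and 3.71 in butyrate. Butyrate S6 fell just under vehicle S2, and S5 was highest. Its log2 fold change was 0.18 ± 0.10 by limma (adjusted p = 0.728) and 0.22 by voom (adjusted p = 0.541). It was 0.10 without S5. The authors' deposited table gives Eif4enif1 0.23 on the log2 scale with an FDR of 0.489. Eif4ebp2, the second binding protein, was at 3.61 ± 0.901 (SD, n = 3) RPKM in vehicle and 3.85 ± 0.374 in butyrate. Eif4ebp3, the third, had the weakest region of all members, with 0.98, 0.81 and 1.40 RPKM in vehicle and 1.31, 1.21 and 0.59 in butyrate. Its groups overlapped, the region had 18.3 mean reads, and the 95% interval of the log2 fold change ran from -0.49 to 0.43.

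**Figure D4:**
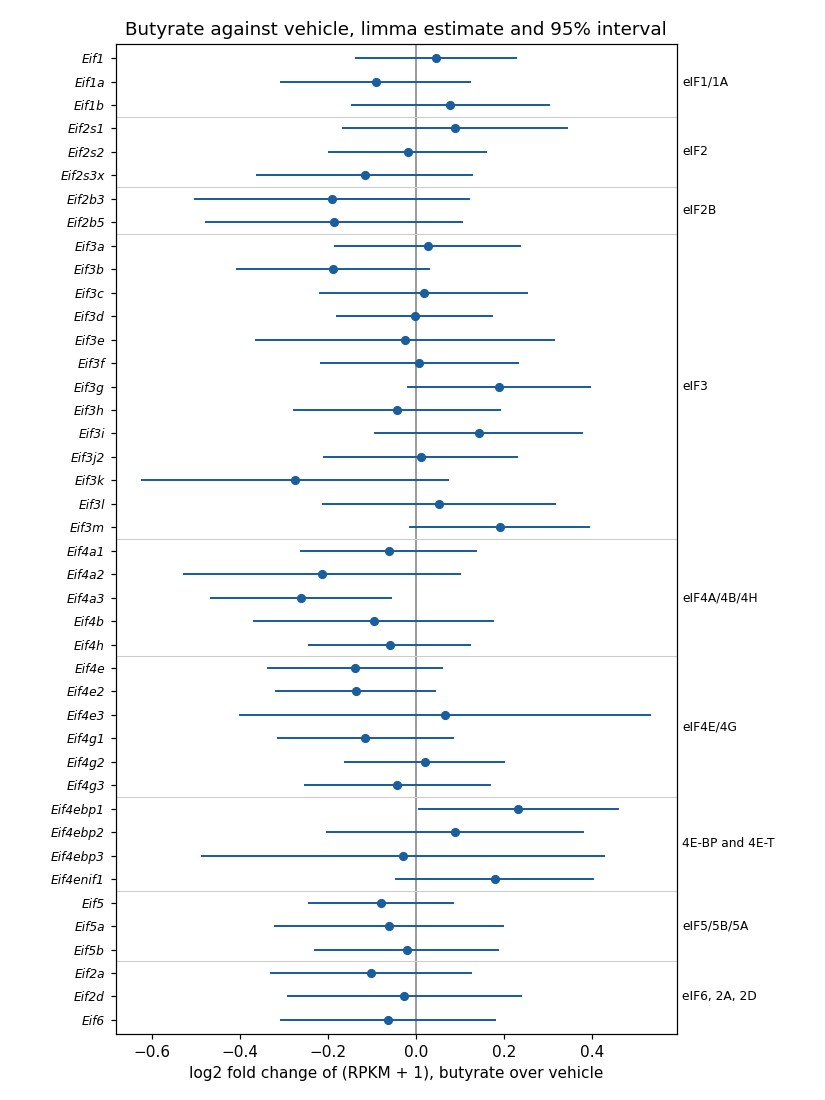
Limma's log2 fold change of (RPKM + 1), butyrate over vehicle (x axis), for each member region, with the 95% interval as a bar, grouped by role. The bars of 40 members cross 0; those of Eif4a3 (below) and Eif4ebp1 (just above) do not.

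The factors of the last steps, eIF5, eIF5B and eIF5A, had 3 estimates just below 0, from -0.08 to -0.02. Eif5, which makes eIF2 hydrolyse its GTP at the start codon (chr12:111536677-111539740), had 6.36, 5.89 and 6.13 RPKM in vehicle and 5.53, 5.72 and 5.97 in butyrate. Butyrate S6 lay above vehicle S2, and the log2 fold change was -0.08 ± 0.08 (limma adjusted p = 0.827). Eif5b, the joiner of the large subunit, was at 4.26 ± 0.430 (SD, n = 3) RPKM in vehicle and 4.17 ± 0.194 in butyrate. Eif5a, the hypusine-bearing factor that also helps elongation, was at 3.09 ± 0.170 and 2.94 ± 0.524.

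Eif6, Eif2a and Eif2d work beside the main pathway, and their 3 estimates lay between -0.10 and -0.03. Eif6, which keeps free large subunits from joining early (chr2:155818344-155828368), had the longest region of all members, at 10024 bp, and the most reads, 542 on average. Its level per length was low, with 2.47, 2.59 and 2.87 RPKM in vehicle and 2.33, 2.68 and 2.45 in butyrate. These groups overlapped, at -0.06 ± 0.11 (limma adjusted p = 0.920). Eif2a, an alternative carrier of initiator tRNA and not a subunit of eIF2 (chr3:58524153-58527274), had the second highest level, with 7.08, 6.71 and 5.01 RPKM in vehicle and 6.14, 5.40 and 5.62 in butyrate. Vehicle S3 was the lowest of its 6 libraries. The spread of Eif2a reads within groups, relative to that of counting alone, was the largest of any member. It was 7.38 in the chi-square divided by its degrees of freedom, a ratio that grows with read depth. In RPKM the vehicle SD of Eif3e, 1.53, was larger than the 1.11 of Eif2a. The log2 fold change of Eif2a was -0.10 ± 0.11 (limma adjusted p = 0.848), or -0.23 without S3. Eif2d, a factor that can place tRNA without eIF2, was at 2.62 ± 0.291 (SD, n = 3) and 2.56 ± 0.388 RPKM.

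Ordered by level per length, Eif3d was highest at 6.52 RPKM over 6 libraries, followed by Eif2a at 5.99, Eif5 at 5.94, Eif4e2 at 5.61 and Eif4h at 5.55. The libraries of each of these overlapped those of the next in order, as Eif3d (5.99 to 7.25) did with Eif2a (5.01 to 7.08). The lowest were Eif4b at 2.20, Eif4a2 at 2.19, Eif2b3 at 1.86, Eif4e3 at 1.85 and Eif4ebp3 at 1.05 RPKM, again with overlap between neighbours. Subunits of one complex had different levels: within eIF3 the means ran from 3.07 RPKM for Eif3k to 6.52 for Eif3d. Within eIF2 the beta subunit gene Eif2s2, at 4.92, was above the alpha subunit gene Eif2s1, at 2.53, in every library.

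Genes around the initiation factors, taken at 1 region per gene, also gave no adjusted p under 0.05 by limma. Of 10 tested genes for eIF2 kinases and the integrated stress response, 7 were higher and 3 lower, with a median log2 fold change of 0.04. At an unadjusted limma p under 0.05 stood 0 of them, where 7.27% of all regions did. Eif2ak2, the kinase that senses double-stranded RNA, had 3.34, 3.95 and 3.19 RPKM in vehicle and 3.90, 3.68 and 5.25 in butyrate, with S6 highest. Eif2ak4, the kinase that senses lack of amino acids, had 4.18, 3.28 and 4.14 RPKM in vehicle and 3.75, 2.95 and 2.40 in butyrate. Groups overlapped at both kinases, at 0.22 ± 0.12 (limma adjusted p = 0.709) and -0.28 ± 0.13 (limma adjusted p = 0.703). Dnajc3, a co-chaperone that inhibits eIF2 kinases, had 5.76, 5.23 and 5.45 RPKM in vehicle and 5.93, 6.80 and 6.01 in butyrate. All its butyrate libraries were above vehicle, as in 6.11% of all regions, at 0.16 ± 0.08 (limma adjusted p = 0.703). Atf4, the transcription factor translated when eIF2 is phosphorylated, was at 0.07 ± 0.08 on the log2 scale.

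Of 17 tested mTORC1 and eIF4F regulators, 9 were higher and 8 lower, with a median of 0.01. At an unadjusted limma p under 0.05 stood 1 of them, where 7.27% of all regions did. That gene was Rps6kb2, a ribosomal protein S6 kinase, with 3.35, 3.51 and 3.66 RPKM in vehicle and 3.81, 4.89 and 4.46 in butyrate. Its groups did not overlap, again as in 6.11% of all regions, and the log2 fold change was 0.25 ± 0.10 (limma adjusted p = 0.640). Of 9 tested initiation factor genes with other names, 3 were higher and 6 lower, with a median of -0.02, and Mcts2, also with all butyrate libraries above vehicle, was under the level needed for the test. Of 9 elongation and termination genes, 2 were higher and 7 lower, with a median of -0.11, where 50% of all regions were lower. Etf1, the release factor, and Eef1g, an elongation factor subunit, had all butyrate libraries below vehicle, as 6.85% of all regions did, at -0.16 ± 0.09 and -0.13 ± 0.11. No gene of either list had an unadjusted limma p under 0.05.

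The libraries held 1255251 to 1828591 reads in regions, with medians of 82 to 120 reads per region, and 33 members had at least 100 mean reads. Within groups, the ratio of the chi-square of reads to its degrees of freedom had a median of 1.64 over the members, near the 1.69 of all regions. Epithelial markers had a region at 13 of 13 genes, with summed levels of 67 to 71.3 RPKM in vehicle and 62.8 to 68.7 in butyrate. Ileal enterocyte markers had a region at 5 of 6 genes, all but Slc10a2, with sums of 15.9 to 16.7 and 15.1 to 17.4. Of these 5, Fabp6 had a weak region of 1.18 RPKM and 12.8 mean reads, while Apoa1 was highest at 6.06 RPKM. T cell markers had weak regions at 3 of 6 genes, Ptprc, Cd3d and Cd2, with sums of 2.63 to 3.52 and 2.61 to 3.17 RPKM, and none at Cd3e, Cd8a or Lck. Markers of B and plasma cells, myeloid cells, stroma and muscle, and endothelium had no region. The part of these differences in the members' values was not tested.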

How the data were processed

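H3K9ac ChIP-seq of 3 vehicle and 3 butyrate libraries was taken from a single deposited table; input libraries were not analysed here. Per the file headers, it gives RPKM per library, and, from the authors, group means of RPKM and CPM, a log2 fold change, a p-value and an FDR. The submitters' processing notes name mm10, STAR, Picard, HOMER and edgeR, used by the authors; how regions were called and reads counted is not given in the sources used here. RPKM times length gave whole reads for 100% of values (tolerance 0.01), with effective library sizes of 17846924 to 25805595.

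The main test was limma 3.58.1 (R 4.3.3) on log2(RPKM + 1), with intensity trend and robust empirical Bayes, two-sided, without covariates, on 10529 regions with a mean of at least 1 RPKM, and Benjamini-Hochberg adjustment over all of them at 0.05. Alternatives were pseudocounts of 0.5 and 0.1, no filter or a mean of at least 2 RPKM, equal sums or upper quartiles, voom on recovered reads, a threshold of 0.1, and leaving out each library. Fits were also run on simulated data, whose changes were larger than the estimates of any member. That run cannot show whether changes as small as those of the members would be found. Starts came from GENCODE M21 and sequences from RefSeq GRCm38.p6; coordinates are as deposited. Columns gave each library's group but no replicate number of the labels.

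Members and gene lists were chosen with earlier results of these data known. Members given with every library's value are, in each direction, the 6 of smallest p, those with the most reads and the smallest p in each role, and those with the highest and lowest RPKM; Eif3e and Eif4e3 were added for their spread, after their values were seen.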

Additional observations from a re-analysis of the deposited data

How the results depend on the processing

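No member passed an adjusted p of 0.05 under any alternative that was run, and the smallest adjusted p of a named member was 0.296. Over all regions limma called 0, while voom called 16 on all regions and 9 on those with at least 25 mean reads; the cause was not tested. The members' median log2 fold change was below 0 in all 17 settings, which include the main fit and all use the same libraries. Dropping the filter, keeping members within 5 kb of a start or taking 1 region per gene left the members unchanged. The medians there equal the main one, -0.028, and could not differ from it. Members whose groups do not overlap numbered 3 with all libraries and 4 to 11 with 1 library left out, where 2 libraries are set against 3; the share over all regions then was 22.7 to 24.3%, against 12.95% with all 6. Of 334 values of the 24 named members under alternatives, 323 kept their direction without passing the test and 11 had the opposite sign, at 5 members near 0. The values without the filter or at a mean of at least 2 RPKM repeat the main estimate and could not change direction. Nor could those of Eif3b, Eif4a3 and Eif4e with another pseudocount or 1 library left out, as their groups do not overlap. Eif3d had 0.0015 with equal upper quartiles, 0.0012 with voom on all regions and 0.00092 with voom at 25 mean reads or more, and -0.0722 to 0.0475 with 1 library left out. The same ranges were -0.0468 to 0.0155 for Eif2s2, -0.129 to 0.140 for Eif4ebp3, -0.0185 to 0.162 for Eif1b and -0.0378 to 0.0682 for Eif4g2. Eif2b3, Eif4e3 and Eif4ebp3 could not be fitted at a mean of at least 2 RPKM. No paired analysis was possible because the table's columns carry no replicate number of the labels. Eif4e3 and Eif4ebp3 had under 25 mean reads and SEs of 0.22 and 0.21, and how much of that is depth was not tested.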
